A study of Mus musculus with 12 samples.

Results

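The 5-methylcytosine (5mC) landscape of newborn cortical neurons was set against their 5-hydroxymethylcytosine (5hmC) landscape. The neurons were sorted from the E14.5 mouse cortex, that is, in the middle of embryonic neurogenesis. The embryos were heterozygous for both reporters, Btg2-RFP and Tubb3-GFP, whichever cells were taken from them, and neurons were all GFP+ cells whatever their RFP. Proliferative progenitors (PP) were negative for both reporters, and differentiative progenitors (DP) were RFP+ and GFP−. Antibodies against 5mC or 5hmC were used to pull down sheared DNA of the 3 cell types, which had been barcoded and mixed beforehand, and the series held 12 samples, 6 pull-downs and 6 inputs, of which 4 were from neurons. The gate takes any cell with Tubb3 reporter activity, so neurons of different layers, and interneurons among them, are averaged.

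The members were all 55085 regions of the 5mC table and all 47478 regions of the 5hmC table, 102563 of 102563 in total, since each had a neuron level. A level is the authors' log2 of the mean normalised read number of a peak over their replicates, and the tables hold 1 such mean per peak and cell type. Replicate values, read totals and inputs per peak were not analysed here, so no error between animals and no test is given, and every difference below is a description of these means. The number of reads behind single peaks is likewise not given here. Since antibodies differ in how strongly they enrich, a level of one mark was not read as higher or lower than a level of the other, also where both are given side by side. Each peak was instead given a percentile within its own table and cell type, with the lowest level near 0 and the highest at 100. Intervals beside shares and medians are at 95% and cover the counting of peaks only.

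5mC is set on cytosines by DNA methyltransferases, mostly where a cytosine is followed by a guanine (CG). TET enzymes oxidise 5mC to 5hmC, so a cytosine that carries 5hmC carried 5mC before, and 5hmC can be either stable or a step towards an unmodified cytosine. Neurons are known for a high content of 5hmC, above all in the bodies of active genes. Antibody pull-down reads a stretch of DNA from many cells, so both marks can be found at 1 place because different cells, alleles or neighbouring cytosines carry them.

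The places that the marks can occupy are shown first by promoter sequences in which a 5mC and a 5hmC peak were both found. Each sequence is the stretch of the 250 bases upstream of the start site that at least 1 of the peaks covered. A peak need not cover all of it. Sequences were taken from RefSeq (GRCm38.p6, the mm10 build) and written 5′ to 3′ on the gene's strand with every CG in capitals. The first 3 were chosen because 5hmC stood far above 5mC in neurons, Gm13110 and Syce1 because the order was the opposite, and Mtmr2 and Hdac6 because both marks were high.
Cabp1 promoter, chr5:115186122-115186323, minus strand: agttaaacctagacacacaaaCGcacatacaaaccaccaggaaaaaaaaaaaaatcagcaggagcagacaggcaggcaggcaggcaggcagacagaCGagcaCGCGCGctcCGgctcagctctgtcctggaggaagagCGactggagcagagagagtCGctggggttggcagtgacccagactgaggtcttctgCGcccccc
Rab15 promoter, chr12:76819097-76819282, minus strand: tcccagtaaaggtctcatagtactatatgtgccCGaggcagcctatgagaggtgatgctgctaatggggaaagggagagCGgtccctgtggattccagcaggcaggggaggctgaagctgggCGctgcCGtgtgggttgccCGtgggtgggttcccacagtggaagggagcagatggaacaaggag
Igfbp6 promoter, chr15:102143997-102144174, plus strand: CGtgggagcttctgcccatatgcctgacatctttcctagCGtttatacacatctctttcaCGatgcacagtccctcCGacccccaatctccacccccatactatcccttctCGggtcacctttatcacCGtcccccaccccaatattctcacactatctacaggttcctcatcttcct
Gm13110 promoter, chr4:154655895-154655992, minus strand: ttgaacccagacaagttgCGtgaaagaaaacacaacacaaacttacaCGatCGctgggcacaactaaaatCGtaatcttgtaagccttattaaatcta
Syce1 promoter, chr7:140787855-140787920, minus strand: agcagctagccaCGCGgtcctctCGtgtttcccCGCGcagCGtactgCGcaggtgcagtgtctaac
Mtmr2 promoter, chr9:13766705-13766791, plus strand: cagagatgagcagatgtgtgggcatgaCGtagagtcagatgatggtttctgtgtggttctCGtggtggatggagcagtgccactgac
Hdac6 promoter, chrX:7947890-7948076, minus strand: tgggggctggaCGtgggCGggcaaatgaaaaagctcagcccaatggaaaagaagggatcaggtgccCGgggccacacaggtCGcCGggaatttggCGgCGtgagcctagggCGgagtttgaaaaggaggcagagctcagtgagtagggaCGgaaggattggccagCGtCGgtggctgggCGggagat
In the stretch of Cabp1, which encodes a neuronal calcium-binding protein, 9 CG were present. The 5mC peak covered only the end of the stretch. In neurons it lay at the lowest level of its table (0.11, percentile 0.035), while 5hmC was 5.11 (percentile 69.5). At Rab15, which encodes a small GTPase of endosomes, 5hmC went from 4.80 in PP to 6.08 in neurons while 5mC was 5.30 and 4.72. The Syce1 stretch, of a synaptonemal complex gene of meiosis, held 7 CG under a 5mC peak at percentile 79.99. The 5hmC peak of this promoter, at percentile 40.9, lay beyond the end of the stretch (chr7:140787651-140787813). The 12 CG of Hdac6, a cytoplasmic deacetylase gene on the X chromosome, lay under a 5mC peak at percentile 82.0. Its 5hmC peak, at percentile 88.8, covered only the end of the stretch.

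Guide sequences of the study give a second set of places. These guides target loci that the study had itself picked, in part with results from these samples, so their pattern is no independent evidence of a direction. Of the 5 loci with guides, those shown are the 3 at which a 5mC peak was found.
Dchs1 guide 1: ttcatgtggactgacacagc
Dchs1 guide 2: ccctattctcctttctttcc
Enc1 guide 1: cacaaccaacaaatggacca
Enc1 guide 2: ctggtttcccagcacagctg
Wif1 guide 1: attggctgagcaaggcagag
Wif1 guide 2: ctgtcagtctgtcctCGagt
The locus of Dchs1 (chr7:105777824-105778152), which encodes a large protocadherin of the Fat pathway, lay within the gene, 9.66 kb from its start. There 5mC was 3.78, 1.49 and 1.23 along the lineage from PP over DP to neurons, and 5hmC was 5.30, 6.03 and 6.46, which put neurons at percentile 0.215 for 5mC and 96.8 for 5hmC. The levels of both marks thus differed step by step along the lineage. By percentile, 5mC was already low in PP (2.31) and was lowest in DP (0.0054). At Enc1 (chr13:97246240-97246462), which encodes an actin-binding protein of neurons, 5mC was 5.06, 3.55 and 0.11 in the same order, and no 5hmC peak overlapped the locus. At Wif1 (chr10:121029536-121029699), an inhibitor of Wnt ligands, the peaks were upstream of the gene, with 5mC at 5.85, 5.29 and 4.25 and 5hmC at 4.05, 4.98 and 6.003. The locus of Cdk5r1, of an activator of the kinase CDK5, had no 5mC peak and a pair of 5hmC peaks at percentiles 32.0 and 53.4 in neurons, and the remaining locus, on chromosome 2, had no peak of either mark.

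The cell type label was checked against expression of the peaks' nearest genes, which the tables give as the authors' values from an earlier RNA-seq study, on a scale that they do not name. All 19 neuronal markers found in the tables were higher in neurons than in PP, with sums of 742252 and 42122, and all 12 markers of proliferative progenitors were lower. Interneuron markers were present (6 genes, sum 10789 in neurons). Markers of other lineages were low in neurons, with sums of 97.2 for 6 microglia markers, 118 for 7 endothelial, 24.1 for 4 astrocyte and 120 for 4 mesenchymal and mural markers. Of the oligodendrocyte-lineage markers, Sox10 was at 0, Olig1 at 0.7 and Mbp at 1103 in neurons.

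5mC levels in neurons spread over a wider range of log2 values than 5hmC levels. The pull-downs were separate and antibodies differ in how strongly they enrich, so this width was not read as a difference between the marks. The 5mC median was 4.87, with 10% of peaks under 3.84 and 10% over 6.26, against a 5hmC median of 4.75 and bounds of 4.03 and 5.81. The low tail was long for 5mC, where 285 peaks had a level below 2 and 38 stood at the lowest value of the table, against 19 and 4 for 5hmC. The tables pool peaks called in any of the 3 cell types, so a peak can be listed through PP or DP and be near the lowest level in neurons. The neuron ranking of 5mC followed that of PP closely (Spearman rho 0.86 over 55085 peaks), and the ranking of 5hmC did so less (rho 0.55 over 47478 peaks). Levels of the 3 cell types share library preparation and pull-down, since their DNA was mixed.

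A 5mC and a 5hmC peak overlapped by at least 1 bp at 6727 places, by 116 bp at the median. These shared places took in 6719 of the 5mC peaks (12.2%) and 6725 of the 5hmC peaks (14.2%). In neurons the shared places were among the higher 5hmC peaks, with a median percentile of 66.8, and near the middle for 5mC at 47.7. In PP the same places had the opposite order, 45.1 for 5hmC and 56.7 for 5mC, and DP lay between with 52.3 and 54.3. Within the shared places the height of one mark said little about the height of the other (rho −0.04 in neurons, −0.02 in DP and −0.05 in PP over 6727 pairs).

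The share of 5mC peaks that met a 5hmC peak varied along the 5mC ranking. Among the lowest 1% of 5mC peaks in neurons, 42.6% overlapped a 5hmC peak (interval 38.6 to 46.8, 549 peaks). The share was 23.3% for the next 4%, near 10% in the middle of the ranking, with 9.86% between percentiles 50 and 60, and 20.5% in the highest 1%. When the 5mC peaks were ranked by their level in PP, the lowest 1% overlapped in 12.7% and the highest 1% in 26.5%. The 5hmC ranking gave another shape. The share that overlapped a 5mC peak was 6.32% in the lowest 1% of 5hmC peaks in neurons, 13.3% between percentiles 50 and 60, and 32.6% in the highest 1% (interval 28.6 to 37.0, 475 peaks), while by the PP level the lowest 1% reached 32.7%.

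**Figure D1:**
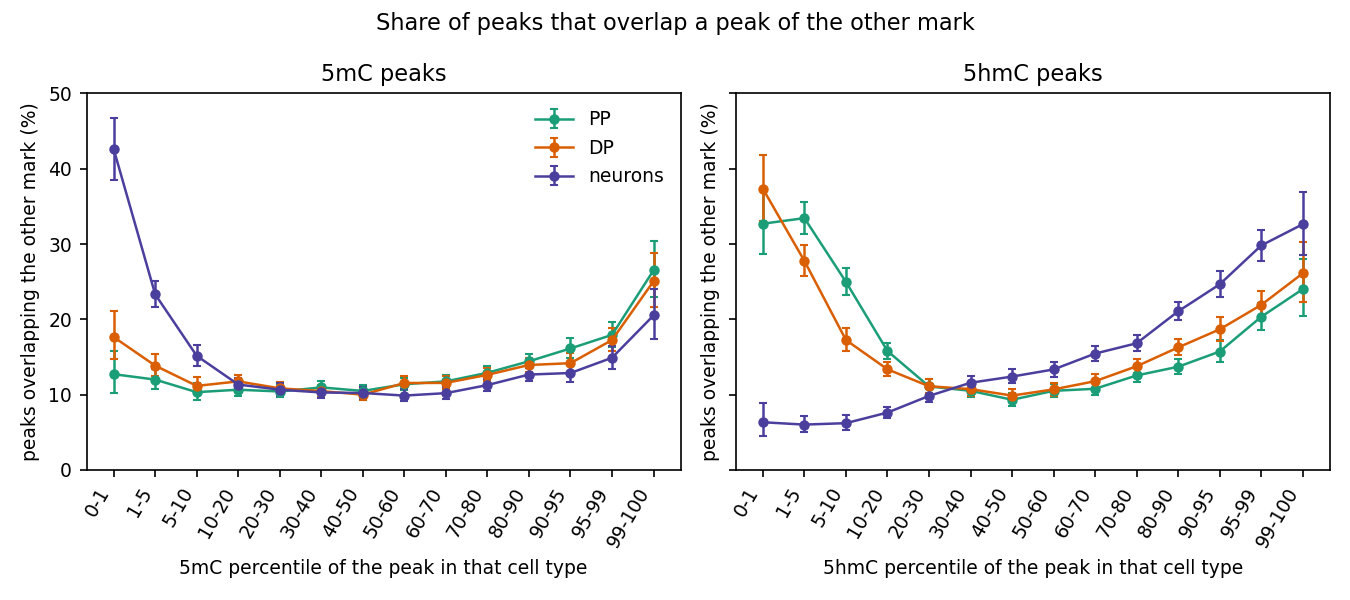
Share of peaks (%, y axis) that overlapped a peak of the other mark, by the peaks' percentile within their own table (x axis), for 5mC and 5hmC peaks ranked by PP, DP and neuron levels, with 95% Wilson intervals over peaks. In neurons the 5mC curve is highest at its low end (42.6%), and the 5hmC curve climbs from 6.32% to 32.6%.

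The lowest 1% of 5mC peaks in neurons had a median percentile of 20.9 in PP and 6.16 in DP. They were chosen by their neuron level, so higher percentiles elsewhere follow in part from the choice. The lowest 1% by PP level likewise stood at 12.2 in DP and 10.1 in neurons. The lowest 1% by DP level stood at 8.65 in PP and 5.52 in neurons. For the lowest 1% in neurons, median expression of the nearest genes was 366, 524 and 726 along the lineage from PP to neurons. Peaks between percentiles 50 and 60 in neurons had 462 in PP and 468 in neurons.

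A shared place was said to lean to 5hmC when its 5hmC percentile exceeded its 5mC percentile by at least 25 points, and to lean to 5mC in the reverse case. In neurons 2743 of 6727 shared places (40.8%) leaned to 5hmC and 1268 (18.8%) to 5mC. In PP the shares were 24.3% and 37.0%, and in DP 27.7% and 30.8%. The corners of the ranking showed the same contrast, since 935 pairs in neurons joined the lowest 25% of 5mC to the highest 25% of 5hmC, against 469 in PP. The reverse corner held 256 pairs in neurons and 814 in PP. Both marks were in their highest 25% at 748 places in neurons and in their lowest at 222. These shares rest on percentiles over each whole table, and ranking the shared peaks among themselves, which centres both marks, gave 28.9% and 28.8%.

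**Figure D2:**
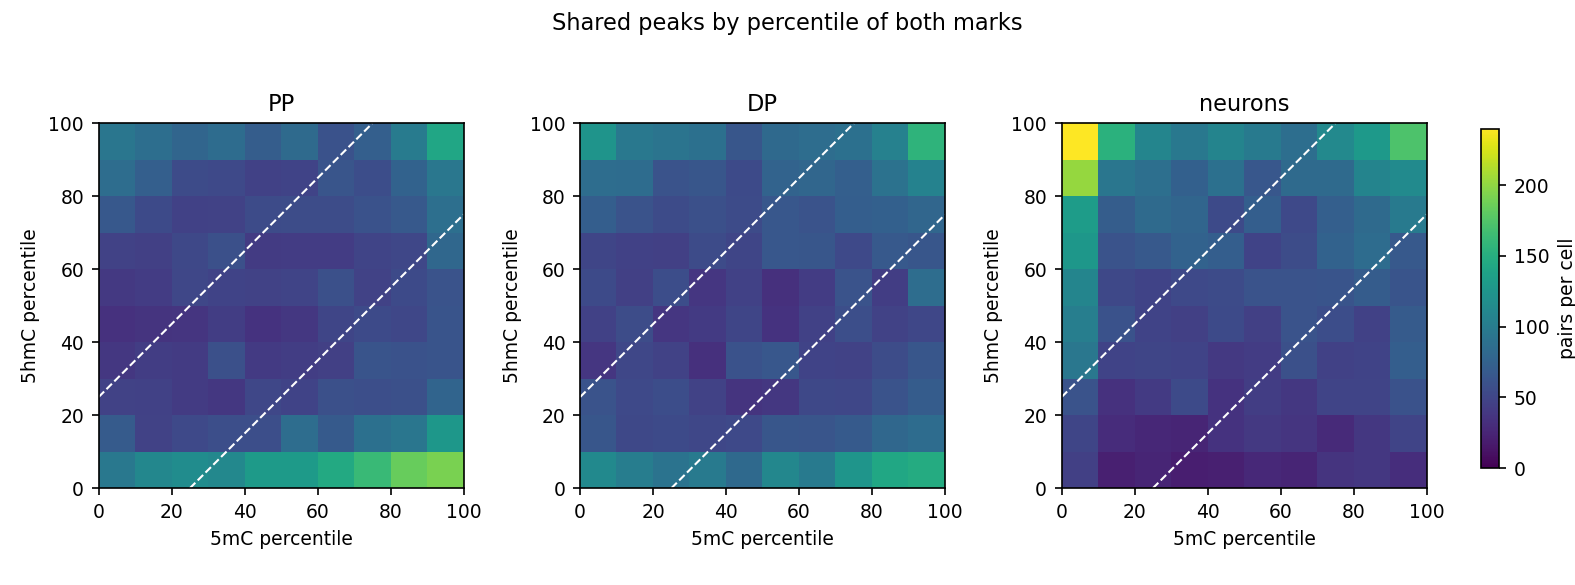
Number of shared places (colour) by steps of 10 points of the 5mC percentile (x axis) and of the 5hmC percentile (y axis), for PP, DP and neurons. The fullest cell in neurons joins the lowest 10% of 5mC to the highest 10% of 5hmC with 240 places, and in PP the highest 10% of 5mC to the lowest 10% of 5hmC with 192.

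Places that leaned to 5hmC in neurons differed from PP in both marks. Their median 5mC percentile was 33.6, 29.1 and 17.0 from PP over DP to neurons, and their 5hmC percentile 60.3, 71.7 and 82.4. The class was chosen on neuron percentiles, so its neuron values follow from the choice and its PP values do so in part. Places that leaned to neither mark went from 68.6 in PP to 64.5 in neurons for 5mC and from 47.3 to 64.3 for 5hmC. Places that leaned to 5mC in neurons had nearly the same percentiles before, with 83.5 in PP and 83.1 in neurons for 5mC, and 27.9 and 28.7 for 5hmC. Median expression of the nearest genes was 472 in PP and 619 in neurons for places that leaned to 5hmC. It was 469 and 550 for places that leaned to neither mark, and 764 and 699 for those that leaned to 5mC. The share leaning to 5hmC was 34.1% up to 1 kb from a start site (interval 28.0 to 40.8, 208 places) and 45.7% beyond 50 kb (interval 43.5 to 47.9, 1945 places).

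The starkest single place lay 15.0 kb upstream of Dusp4, which encodes a phosphatase that switches off MAP kinases. There 5mC was 4.06, 3.42 and 0.9995 in PP, DP and neurons, and 5hmC was 6.74, 6.98 and 7.42. Within Atp9a, of a membrane lipid flippase, 5mC was 5.04 in PP and 1.59 in neurons while 5hmC was 5.65 and 7.502. Both places were in the lowest 1% of neuron 5mC and the highest 1% of neuron 5hmC. The next in order were Nr1d1, of the circadian repressor REV-ERBα, at 2.58 for 5mC and 6.97 for 5hmC, Slc7a1, of a transporter of arginine and lysine, at 1.53 and 6.69, Plcxd2 at 2.39 and 6.82, and Inhbb, of an activin subunit, at 3.05 and 7.40. At Plcxd2 5hmC had been 2.60 in PP. Expression of the nearest gene did not go one way, with 859 in PP and 15824 in neurons for Dusp4 and 6623 and 1655 for Inhbb.

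In the other direction, Snord37, a small nucleolar RNA gene, had 5mC at 9.13, 9.16 and 9.09 in the same order beside 5hmC at −0.05, 3.23 and 0.85. Sfi1, of a centrosome protein, stood at 8.62 and 2.70 in neurons. Upstream of Pak3, of a kinase of the actin cytoskeleton, 5mC in neurons was 7.73, and 5hmC was −0.05 in PP, 8.57 in DP and again −0.05 in neurons, a high value in 1 cell type that the means cannot check between replicates. Fam38a, the older name of the mechanosensitive channel Piezo1, had 7.26 and 3.45, and the splicing factor gene Sart1 7.63 and 3.74. A place within Cdk5rap2, of a centrosome protein needed for brain size, was among the highest of both tables, with 10.91 for 5mC and 10.10 for 5hmC in neurons and 10.81 and 10.42 in PP. Chit1 and Plekhg3 were likewise in the highest 2% of both, and the Chit1 place lay within 100 kb of the reporter gene Btg2. Input levels were not analysed here, so DNA copy number and modification cannot be told apart at these places.

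By genes, 14361 had a 5mC peak, 12848 a 5hmC peak and 10916 of 16293 both. Each gene was ranked by its highest peak. Genes with a peak of both marks had a median percentile of 54.1 for 5mC, against 36.4 for the 3445 genes with 5mC alone, and of 53.7 for 5hmC, against 31.6 for the 1932 genes with 5hmC alone. Over the genes with both, the rankings went together weakly (rho 0.20). A gene's highest level followed its number of peaks (rho 0.54 for 5mC and 0.58 for 5hmC), and with the median peak of each gene in place of the highest the relation between marks was absent (rho −0.01), as it was over the 1133 genes with exactly 1 peak of each mark (rho 0.01). In neurons 2641 genes (24.2%) leaned to 5hmC and 2717 (24.9%) to 5mC, close to the shares in PP (24.1% and 26.2%). Genes were ranked within each mark, which by itself keeps these shares near balance.

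The 10 genes with the highest 5mC peaks included the predicted gene Gm11400 (12.21), Cdk5rap2 (10.91), Sfi1 (10.497) and Dpy19l1 (9.33), of a mannosyltransferase family, and otherwise predicted or little-described genes. Those with the highest 5hmC peaks included Cdk5rap2 (10.10), Gm11400 (9.66) and Btg2 (9.14), an antiproliferative gene and the basis of one reporter, as well as Chit1 (8.44), of a chitinase, and S1pr3 (8.22), of a sphingosine 1-phosphate receptor. The Chit1 peak lay within 100 kb of Btg2, a region taken up below, where DNA copy number and modification cannot be told apart. Without input levels the same holds for the other highest peaks. The highest 5mC peaks of Gm11400 and Sfi1 lay close together (chr11:3150765-3150877 and chr11:3173636-3173756). Their levels differed little between cell types, with 12.11 and 10.40 in PP. Chit1 and S1pr3 were hardly expressed, at 1.7 and 9.7, against 7316 for Cdk5rap2.

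Tubb5, a beta-tubulin gene expressed at 171698 in neurons, leaned most to 5hmC among the highly expressed genes, with its highest 5mC peak at 3.40 and its highest 5hmC peak at 7.38. Its peaks overlapped within the gene, and in PP they had levels of 4.58 and 5.49. Phf21a, of a histone reader of the LSD1 complex, had 4.16 for 5mC and 7.59 for 5hmC, and the microtubule-associated kinase gene Mast1 had 3.35 and 6.40. Dchs1, shown above, had no higher peak than that of the targeted locus. Over all genes the imprinted non-coding RNA gene H19 (3.65 and 7.09, by peaks 27.9 and 36.6 kb upstream) and Hmg20b (3.79 and 7.15), also of an LSD1 complex, were among the 8 with the largest lean to 5hmC.

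Among the 8 genes with the largest lean to 5mC, Spc25, of the kinetochore, had 7.99 for 5mC and 3.72 for 5hmC, and Suv39h1, of a methyltransferase of histone H3 lysine 9, had 7.60 and 3.91. Ppp1r15b (7.48 and 3.34) encodes a subunit that directs dephosphorylation of eIF2α, and Mpi (7.78 and 4.03) mannose phosphate isomerase. Among highly expressed genes Smarca4, of the BRG1 chromatin remodeller, had 7.08 and 4.01 at an expression of 58920, and Pik3ca, of a PI3 kinase catalytic subunit, 6.56 and 3.81. High levels of both marks were found for Cyp26b1 (8.08 and 7.63), which degrades retinoic acid, for Dusp4 (8.03 and 7.42), whose highest 5mC peak lay far from the place described above, and for the seizure-related gene Sez6l (7.77 and 7.32).

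Gene lists were then read against the shares over all genes, 24.2% leaning to 5hmC and 24.9% to 5mC. Of 25 genes of synaptic adhesion, 20 had both marks, and 12 of them leaned to 5hmC and 0 to 5mC. The median percentile was 58.2 over the 21 genes with 5mC and 75.5 over the 22 genes with 5hmC, which had a median of 3 and 6.5 peaks per gene. In PP 10 of the 20 already leaned to 5hmC, so the pattern was not one of neurons alone. With the median peak per gene 7 of the 20 leaned to 5hmC and 4 to 5mC. Over all genes that setting gave 28.7% and 25.9%, so the list then lay nearer to the shares over all genes. Nrxn2, a presynaptic neurexin gene, leaned most, with the highest peaks assigned to it at 3.34 for 5mC and 6.11 for 5hmC. Lrrtm1, of a postsynaptic partner of neurexins, had 3.97 and 5.82. Cntn1, Cntn2 and Cntn4, of contactins at the axon surface, had 5hmC levels of 7.41, 6.75 and 7.48, with expression from 34.4 for Cntn4 to 226628 for Cntn2.

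**Figure D3:**
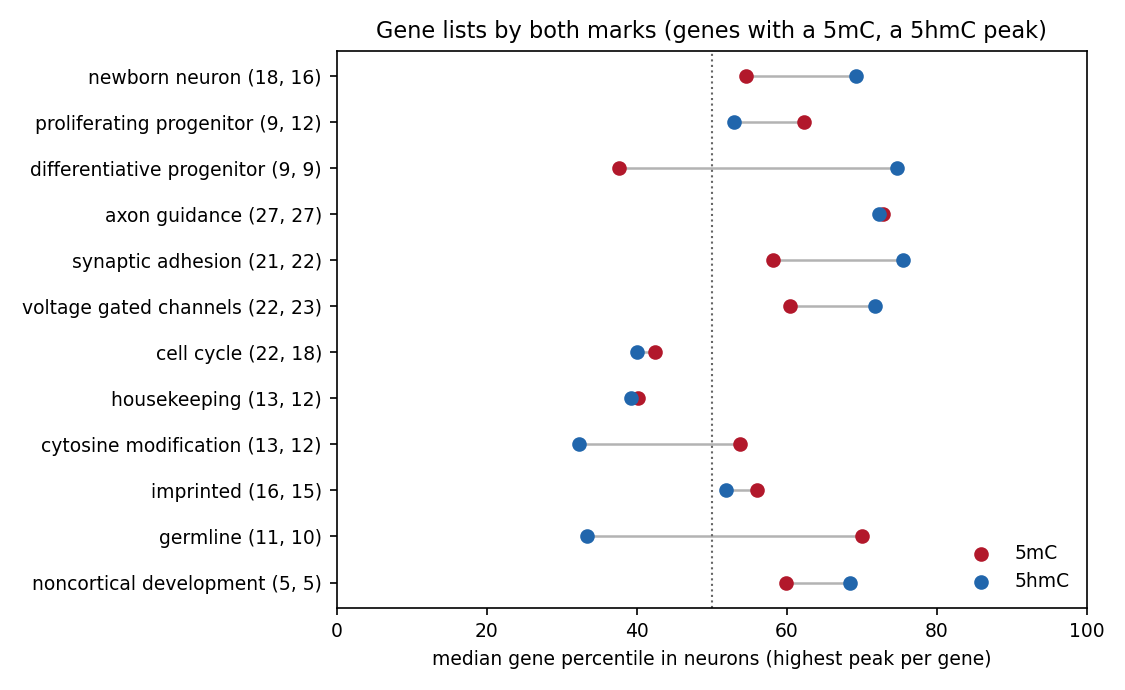
Gene lists in neurons, with the median percentile of each list's genes with a 5mC or a 5hmC peak and, in brackets, the number of genes with each. Of the synaptic adhesion genes with both marks, 12 of 20 leaned to 5hmC and 0 to 5mC, against 24.2% and 24.9% of all genes. With the median peak per gene 7 and 4 did so, against 28.7% and 25.9% of all genes.

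Of 22 neuronal markers 15 had both marks, 4 leaned to 5hmC and 1 to 5mC. Neurod6, a transcription factor gene of cortical projection neurons, had 4.73 for 5mC and 6.60 for 5hmC, and Elavl4, of a neuronal RNA-binding protein, 4.49 and 5.74. For Nefm, of the middle neurofilament chain, 5hmC was 0.74 in PP and 5.83 in neurons at its highest peak, while for Dcx, of a microtubule-binding protein of migrating neurons, it was 0.67 and 5.44. Nefl, the light chain, was the gene that leaned to 5mC, with 5.79 and 4.21. Neurod2 had 1 peak of each mark, at the same place, and both were low in neurons. There 5mC was 5.91, 4.92 and 2.50 from PP over DP to neurons, and 5hmC 4.57, 5.08 and 3.28. The 16 markers with 5hmC had a median percentile of 69.3 in neurons, 46.8 in DP and 57.2 in PP, and the 18 with 5mC one of 54.6, 56.9 and 53.0.

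Markers of differentiative progenitors had 8 genes with both marks, of which 4 leaned to 5hmC and 0 to 5mC. In DP the numbers were 4 and 1 and in PP 3 and 1, and with peaks inside or up to 5 kb from the start 2 leaned to 5hmC in neurons. The 4 were Eomes, of the transcription factor TBR2, Gadd45g, which acts in DNA demethylation and stress, Nhlh1 and Mfng. Gadd45g had 3.55 for 5mC and 5.81 for 5hmC in neurons, and Mfng, of a glycosyltransferase that modifies Notch, had 5hmC at 4.30 in PP and 6.20 in neurons. Markers of proliferative progenitors had 0 of 9 leaning to 5hmC and 1 to 5mC. Axon guidance genes were high in both marks, with medians of 72.8 and 72.3 over their 27 genes with each. They were as high before, with 67.5 and 76.3 in PP. They had a median of 5 and 9 peaks per gene, against 3 and 2 over all genes, and a gene's highest level followed its number of peaks. Of the 26 with both marks, 5 leaned to 5hmC and 4 to 5mC. Slit1, a repellent ligand, had 4.62 for 5mC and 6.07 for 5hmC, and the netrin receptor gene Dcc had 6.39 and 5.18.

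Many genes of the germline are silenced by methylation in somatic cells. Those listed had median percentiles of 69.98 over 11 genes with 5mC and 33.4 over 10 with 5hmC. The medians were 64.2 and 38.4 in PP, and these genes had a median of 4 and 1.5 peaks per gene. Of the 8 with both marks, 2 leaned each way. Brdt, of a testis bromodomain protein, had 6.55 and 4.03, whereas Dazl, of a germ cell RNA-binding protein, had 4.95 and 6.88. The enzymes of the marks themselves did not share a direction, with 3 of 11 genes leaning each way. Dnmt3a, of a de novo methyltransferase, had 4.07 for 5mC and 6.09 for 5hmC, and Tet2 and Tet3, of the oxidising enzymes, had 5hmC levels of 5.82 and 5.54. Dnmt1, of the maintenance methyltransferase, had 5.85 and 4.16. For voltage-gated channels 3 of 20 leaned to 5hmC and 2 to 5mC, for cell cycle genes 3 and 5 of 15, for housekeeping genes 3 and 3 of 9, for imprinted genes 3 and 4 of 11 and for regulators of development outside the cortex 2 and 1 of 4.

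Overlaps at single list members were found where 5mC was lowest in neurons. Within Nrxn2, 24.4 kb from the start, where the 5hmC peak is assigned to a neighbouring gene model, 5mC was 4.36 in PP and 1.40 in neurons and 5hmC 4.31 and 6.54. A place in Cacna1a, of a calcium channel of synaptic terminals, had 5.03 and 1.51 for 5mC and 5.33 and 5.77 for 5hmC. Within Efnb2, of an ephrin ligand, the values were 4.96 and 3.12 for 5mC and 5.32 and 6.51 for 5hmC. Low 5mC did not always come with high 5hmC. Downstream of Sox2, of a progenitor transcription factor, 5mC was 4.47 in PP and 0.47 in neurons, and 5hmC 1.65 and 4.19, which was at percentile 16.1 in neurons.

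Position relative to the nearest gene moved both rankings by a few points. Peaks up to 1 kb from a start site had a median percentile of 54.3 for 5mC (interval 51.6 to 56.8, 1649 peaks) and 54.1 for 5hmC (51.1 to 56.4, 1526 peaks). Beyond 50 kb the medians were 47.0 and 48.5. Inside genes they were 51.1 and 52.7, and the 5hmC value had been 48.3 in PP, while the 5mC value had been 51.4. Peaks across a gene's start had a median of 62.9 for 5mC (54.7 to 69.9, 257 peaks) and 48.9 for 5hmC (40.8 to 57.3, 101 peaks). Predicted and RIKEN genes aside, the highest peaks up to 1 kb from a start site were those of Snord37 for 5mC (9.09) and of Vstm2l for 5hmC (7.69).

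The CG content of promoters was set against the levels of the peaks that covered them. Of 32817 RefSeq windows, from 250 bases before to 50 after a start site, 5mC peaks overlapped 361 and 5hmC peaks 413, with 62 covered by both. The motif CG reads the same on both strands, 5.43% of all windows held none, and 43.4% held 10 or more. Windows under 5mC peaks of the highest 25% held 10 or more in 60.2% and those of the lowest 25% in 29.0%. For 5hmC the shares were 41.6% and 44.3%. Each overlap of a window with a peak was then counted, so a window under several peaks counted more than once. Windows of neighbouring start sites also overlap. Over these overlaps, in 361 windows, the number of CG followed the 5mC percentile (rho 0.22). It did not follow that of 5hmC (rho −0.04, in 413 windows). Single windows departed from this. Of those shown above, Hdac6 and Syce1 held 20 and 14 CG and Cabp1, lowest in 5mC, held 12, while Gm13110 and Mtmr2, high in 5mC, held 8 and 5, and Rab15 and Igfbp6 held 8 each.

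Peaks of the most expressed genes in neurons were lower in 5mC and higher in 5hmC than those of the other genes, most clearly inside genes. Over all genes, rho between the highest level and expression was 0.02 for 5mC (14361 genes) and 0.02 for 5hmC (12848 genes). Inside the 10% of genes with the highest expression in neurons, 5mC peaks had a median percentile of 46.8 (interval 44.8 to 48.9, 3217 peaks) and 5hmC peaks one of 57.2 (55.7 to 59.0, 3353 peaks). The top 10% drawn by expression in PP and read at PP levels had 52.8 and 45.1, and in DP 50.4 and 48.1. The other steps of 10% in neurons lay between 49.99 and 53.96 for 5mC and between 49.8 and 52.6 for 5hmC. Without the lowest 10% of neuron peaks, the 5mC median in the most expressed genes was 51.0. Outside genes, peaks of the top 10% were at 47.3 and 50.7, against 48.2 to 50.7 for 5mC and 46.1 to 49.8 for 5hmC in the other steps. By the highest peak per gene, the top 10% had 48.0 for 5mC, between the others' 46.3 and 52.7, and 55.96 for 5hmC, against 46.8 to 51.9.

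**Figure D4:**
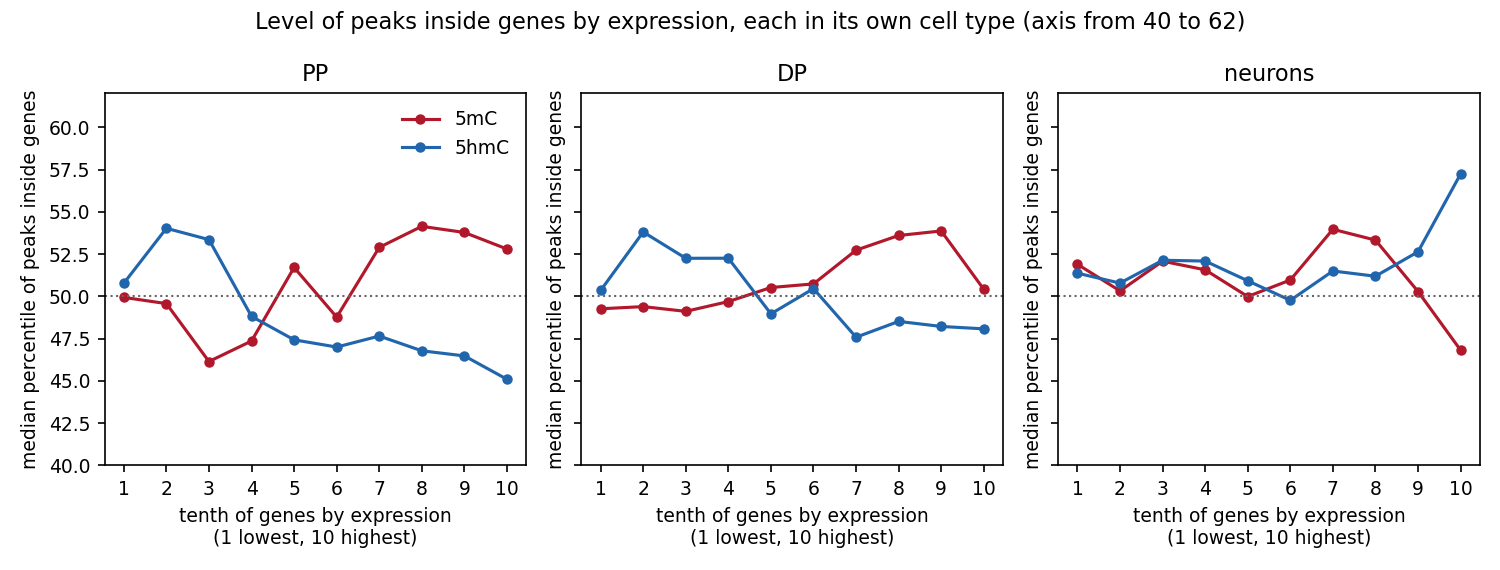
Median percentile (y axis) of peaks inside genes by steps of 10% of the expression ranking (x axis, lowest to highest) for 5mC and 5hmC in each of the 3 cell types. In the most expressed 10% neurons have 46.8 for 5mC and 57.2 for 5hmC, and PP have 52.8 and 45.1.

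Gene lengths, matched for 15095 of 16293 genes, gave 22.8 5mC peaks per Mb inside the top 10%, within the 21.0 to 31.4 of the other steps, and 23.8 5hmC peaks, against 16.6 to 22.8. In PP the top 10% by PP expression held 26.6 and 25.9. Genes expressed at least 4-fold higher in neurons than in PP had inside peaks at a median of 44.2 for 5mC and 54.1 for 5hmC in neurons, and of 49.1 and 46.7 in PP. Genes at least 4-fold lower had 51.9 and 52.8 in neurons. Peaks of 1 gene are not independent, and the inside peaks of the first group came from 1077 genes for 5mC and 1043 for 5hmC.

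Levels were high around the reporter genes, in both marks at Btg2 and in 5mC at Tubb3. These regions were chosen after their levels had been seen. Within 100 kb of Btg2, 29 5mC peaks had a median percentile of 81.0, higher than in 98.3% of 11022 such windows around genes with at least 5 peaks, and 31 5hmC peaks had a median of 96.6, higher than in 99.96% of 10056. Around Tubb3 41 5mC peaks had a median of 94.96, above 99.9% of windows, and 23 5hmC peaks one of 63.0, above 76.1%. Input levels were not analysed here, and DNA copy number and modification cannot be told apart in these windows. The overlapping peaks at −883 and −907 bp from the start of Tubb3 had 5mC at 6.52, 6.03 and 4.36 from PP over DP to neurons, and 5hmC at 3.03, 3.30 and 5.72, so they did not follow the rest of the window. The neuron shares leaning to each mark, over genes and over shared places, moved by less than their intervals when both windows were left out.

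**Figure D5:**
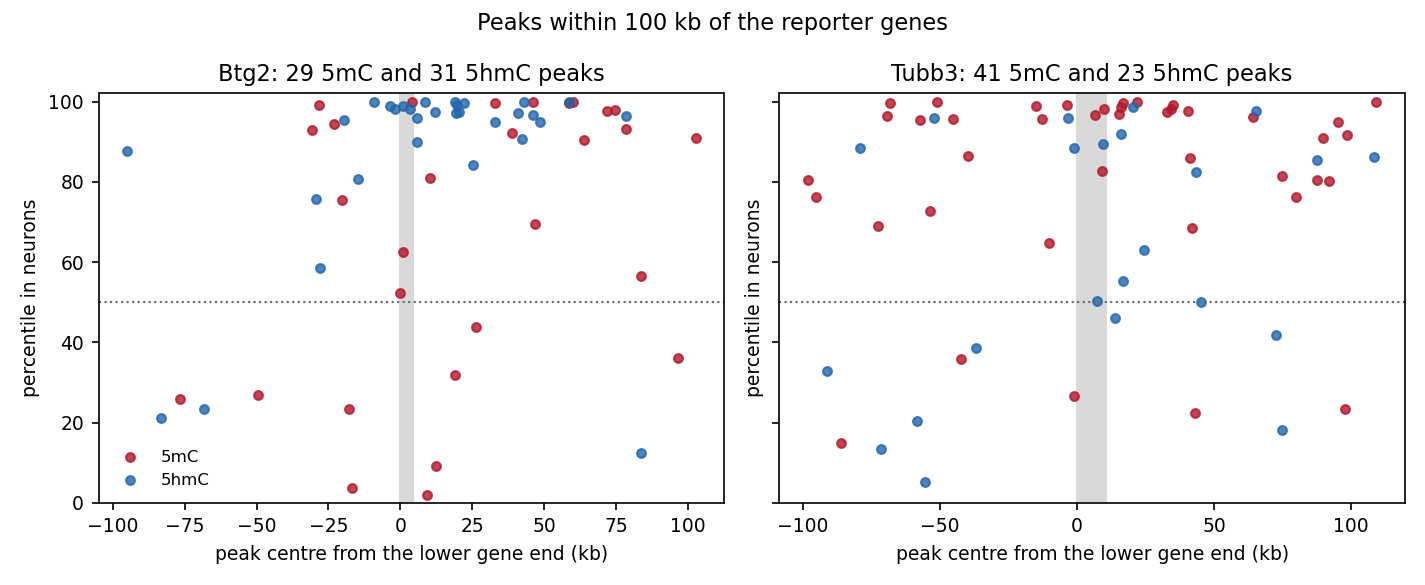
Percentile in neurons (y axis) of each 5mC and 5hmC peak by its distance from the lower end of the gene (x axis, kb), for Btg2 and Tubb3, with the gene body shaded and the middle of the ranking dotted. The Btg2 window has a median of 96.6 for 5hmC, and the Tubb3 window one of 94.96 for 5mC.

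The X chromosome had lower 5hmC in neurons than every autosome. Its 1009 5hmC peaks had a median percentile of 39.5, against 46.0 to 53.3 over the 19 autosomes, and of 57.0 in PP and 51.5 in DP. The 5hmC value in PP lay above the autosomal range there, 47.1 to 54.5. Its 799 5mC peaks had 50.2 in neurons, within the autosomal range of 47.1 to 53.8. In PP and DP they had 43.3 and 41.6, below the autosomal ranges of 47.1 to 54.7 and 47.6 to 53.9. The sex of the embryos was not given in the sources used here.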

How the data were processed

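Newborn neurons, PP and DP of the embryonic day 14.5 cortex were profiled by MeDIP and hMeDIP. The authors aligned reads to mm10 with BWA (0.7.8-r455), called peaks with SICER (1.1), left out repeats, merged peaks over cell types, annotated them with HOMER (4.7) and computed levels with DiffBind. The submitters' processing notes also name bcl2fastq (1.8.4) and deepTools (2.2). The deposited levels are the log2 of the authors' mean TMM-normalised read number per peak, with no replicate values. The deposited expression values are a score taken from the authors' earlier RNA-seq, with no scale named. Of the deposited columns, 10 hold the authors' own comparisons (fold changes and p-values) and were not used.

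Levels were ranked within each table and cell type using scipy (1.17.1), numpy (2.4.6) and pandas (2.3.3) in python (3.11.15), with plots by matplotlib (3.10.9). Genes took their highest peak, and peaks overlapping by 1 bp or more were paired. Shares have Wilson intervals and medians have order-statistic intervals. No test was run, and the functions were tested on simulated data. Named were the 10 highest genes of each mark, the genes and pairs with the largest difference or highest in both, also among the most expressed 10%, the 5 highest peaks up to 1 kb from a start site and members of lists. Promoters with both marks and reporter windows were chosen after their values were seen. The members and lists were chosen with earlier results of these data known. Alternatives were the peak per gene, the overlap, the margin, the ranking, chromosomes and filters on low levels. All peaks were assigned by position to the nearest gene, which need not be the gene they act on. The 6 inputs were not used here. The summed level of the oligodendrocyte-lineage markers is not reported here.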

Additional observations from a re-analysis of the deposited data

How the results depend on the processing

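The 95% intervals and the agreement between settings cover peaks, not animals. No paired analysis was possible because the tables hold 1 mean per cell type, and leaving out replicates was not run for the same reason. The planned sequence content of all peaks was not run, since no genome was used here. Of the alternatives to the main comparisons, 69 values moved by less than the interval or tolerance of the reported value and 38 by more, and among the other gene lists these were 29 and 25. Settings chosen after seeing the data were run without peaks within 100 kb of Btg2 and Tubb3, for genes and shared places, and without peaks at the lowest level of their table, for shared places, and those values stayed within that bound. Leaving out the lowest 10% of peaks removes the low end that the overlap share describes, and ranking the shared peaks among themselves centres both marks, so neither bears on where those patterns come from. Over genes, rho between the marks was −0.0091 with the median peak, 0.0146 over genes with exactly 1 peak of each mark and 0.13 with peaks inside or up to 5 kb from the start. The share of genes leaning to 5hmC was 28.7% with the median peak, 26.3% over single-peak genes, 26.1% with near peaks, 38.3% at a margin of 10 points and 8.70% at 50, and that leaning to 5mC was 25.9% with the median peak, 29.3% over single-peak genes, 38.2% at 10 points and 9.45% at 50. At shared places 42.3% leaned to 5hmC when overlaps covered 50% of the longer peak. Ranking among the shared peaks only gave 28.9% and 28.8% leaning to 5hmC and 5mC, leaving out the lowest 10% of neuron peaks 34.8% and 21.9%, a margin of 10 points 53.2% and 29.2%, and one of 50 points 23.3% and 7.998%. The share of the lowest 1% of 5mC peaks that overlapped 5hmC was 37.7% when the overlap covered 50% of the shorter peak, 33.2% for the longer peak and 8.89% without the lowest 10%, and that of the highest 1% of 5hmC peaks was 28.4%, 26.7% and 27.8%. Inside the most expressed genes the 5mC median was 51.0 without the lowest 10%. With a start-site class of up to 5 kb the 5hmC median was 50.8. Of the lists, 2, 0 and 4 neuronal markers leaned to 5mC with the median peak, near peaks and a margin of 10 points. For differentiative progenitors 2 leaned to 5hmC with near peaks and 1 to 5mC at 10 points. For synaptic adhesion 7 and 6 leaned to 5hmC with the median peak and near peaks. To 5mC 4 and 2 leaned with the median peak and a margin of 10 points. With near peaks only 13 of these genes had both marks. The cause of these shifts was not tested, other than where the setting itself changes which peaks count.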
